A study of Homo sapiens with 6 samples.

Results

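The genes described here are FGF9, a secreted fibroblast growth factor, FGFBP1, a carrier protein that releases FGFs from the matrix, the 4 signalling FGF receptors (FGFR1 to FGFR4), and 4 inhibitors that feed back on the pathway (SPRY2, SPRY4, SPRED1 and DUSP6). They are 10 of the 58395 Ensembl genes listed, matched by symbol to a single identifier each, and all 10 held enough reads to be tested. Fibroblast growth factors bind their receptors together with heparan sulfate chains of the cell surface, and the bound receptors phosphorylate the docking protein FRS2. FRS2 recruits GRB2 and SOS, RAS is loaded with GTP, and the RAF, MEK and ERK kinases follow. ERK activity switches on Sprouty, SPRED and DUSP genes, whose products dampen the same cascade, so that their transcripts are widely used as readouts of it. The set was chosen on the comparison between the hairpins described below, in which FGF9 had stood out, so the changes of these 10 genes are given as descriptions, with no p. Whether one of them passed the threshold of the fit over all genes is stated as part of that description and supports nothing.

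RNA came from HCT116, a line of human colorectal cancer cells. The cells were infected with lentivirus that expresses either a non-target hairpin (shControl, 3 biological replicates) or a hairpin against STBD1 (shSTBD1, 3 biological replicates). They were grown in DMEM with 10% fetal bovine serum and selected with a drug. The methods name puromycin or G418 without saying which was used for these cells. The methods list a single hairpin against STBD1, and no untreated cells were among the libraries. Whether the replicates were separate infections is not stated. The p-values below measure the spread among these cultures and not that between hairpins. RNA was measured in bulk, so that fewer cells expressing a gene and less RNA per cell cannot be told apart. STBD1, a glycogen-binding protein, was measured at 16.2, 15.7 and 14.4 CPM (read counts relative to library size, scaled by edgeR's TMM factors) in shControl and at 11.6, 9.06 and 9.18 CPM in shSTBD1. Its log2 fold change was -0.64 (standard error 0.098, adjusted p = 2.9e-04 by the quasi-likelihood F-test of edgeR, with p-values adjusted by Benjamini-Hochberg over all tested genes), and the groups did not overlap.

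The libraries held between 17689097 and 21668274 expected counts, which are RSEM's estimates of the reads that belong to each gene. Of 15566 genes tested, 2453 passed an adjusted p of 0.05, which is 15.8% of them. The share was 8.22% for genes higher in shSTBD1 and 7.54% for genes lower in it. CPM values of the groups did not overlap in 33.6% of the tested genes, and the median absolute log2 fold change was 0.11. shControl replicate 1 stood apart from the other control libraries, with a chi-square per degree of freedom of 6.26 and 5.00 against replicates 2 and 3. Replicates 2 and 3 differed from each other by 1.64, and the shSTBD1 libraries differed among themselves by 1.79 to 2.02. Of the epithelial markers, 5 of 6 tested were higher in shSTBD1 by the edgeR test, and their summed level was 2919 to 2947 TPM (reads scaled to transcript length and library size) in shControl against 3314 to 3446 TPM in shSTBD1. EPCAM, the surface antigen of epithelial cells, was the marker that did not pass, at 177 TPM in both groups, and VIL1 held too few reads to be tested. Markers of other cell types were low. The fibroblast and mesenchymal markers summed to 19.2 to 24.6 TPM in shControl and to 21.2 to 25.4 TPM in shSTBD1, nearly all of it COL1A1 and ACTA2, with LUM at 0 in every library. The 4 endothelial markers summed to at most 0.69 TPM. The leukocyte markers, nearly all CD68, a lysosomal protein, summed to 6.64 to 8.03 TPM in shControl and to 10.9 to 12.1 TPM in shSTBD1, with PTPRC and CD3E, which define leukocytes and T cells, at 0. None of the 2 fibroblast and 2 endothelial markers tested passed the edgeR test, and 0 of each had an unadjusted p under 0.05. CD68, the 1 leukocyte marker tested, was higher in shSTBD1 (log2 fold change 0.47, edgeR adjusted p = 0.0027). The part of the epithelial and CD68 differences in the values below was not tested.

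FGF9 had the largest difference among the 10 genes. This growth factor signals through FGFR3 and through the IIIc splice forms of FGFR1 and FGFR2, among others, and is best known from lung, gonad and skeletal development. FGF9 (ENSG00000102678) lies on the plus strand of chromosome 13 of GRCh38, from 21671073 to 21704498. It was measured at 3.43, 4.74 and 3.67 CPM in the shControl libraries. In the shSTBD1 libraries it was measured at 1.48, 0.966 and 1.82 CPM. Every shSTBD1 library was below every control library, and shSTBD1 replicate 2 was the lowest of all. The means were 3.95 ± 0.70 CPM (SD, n = 3) and 1.42 ± 0.43 CPM (SD, n = 3). The log2 fold change was -1.49 (standard error 0.23), so that the level fell by 64.4%. Among the 15566 tested genes, 10 had a more negative log2 fold change.

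The level of FGF9 was low in both groups. Its reads were 66, 99 and 65 expected counts in shControl and 27, 21 and 36 in shSTBD1, or 230 against 84 in all. Per length, FGF9 was at 1.67, 1.66 and 1.54 TPM in shControl and at 0.61, 0.49 and 0.66 TPM in shSTBD1, again without overlap. Leaving out 1 library at a time moved its log2 fold change between -1.71, without shSTBD1 replicate 3, and -1.26, without shSTBD1 replicate 2. On the log2(TPM + 1) scale, which compresses low values, it was -0.73.

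**Figure D1:**
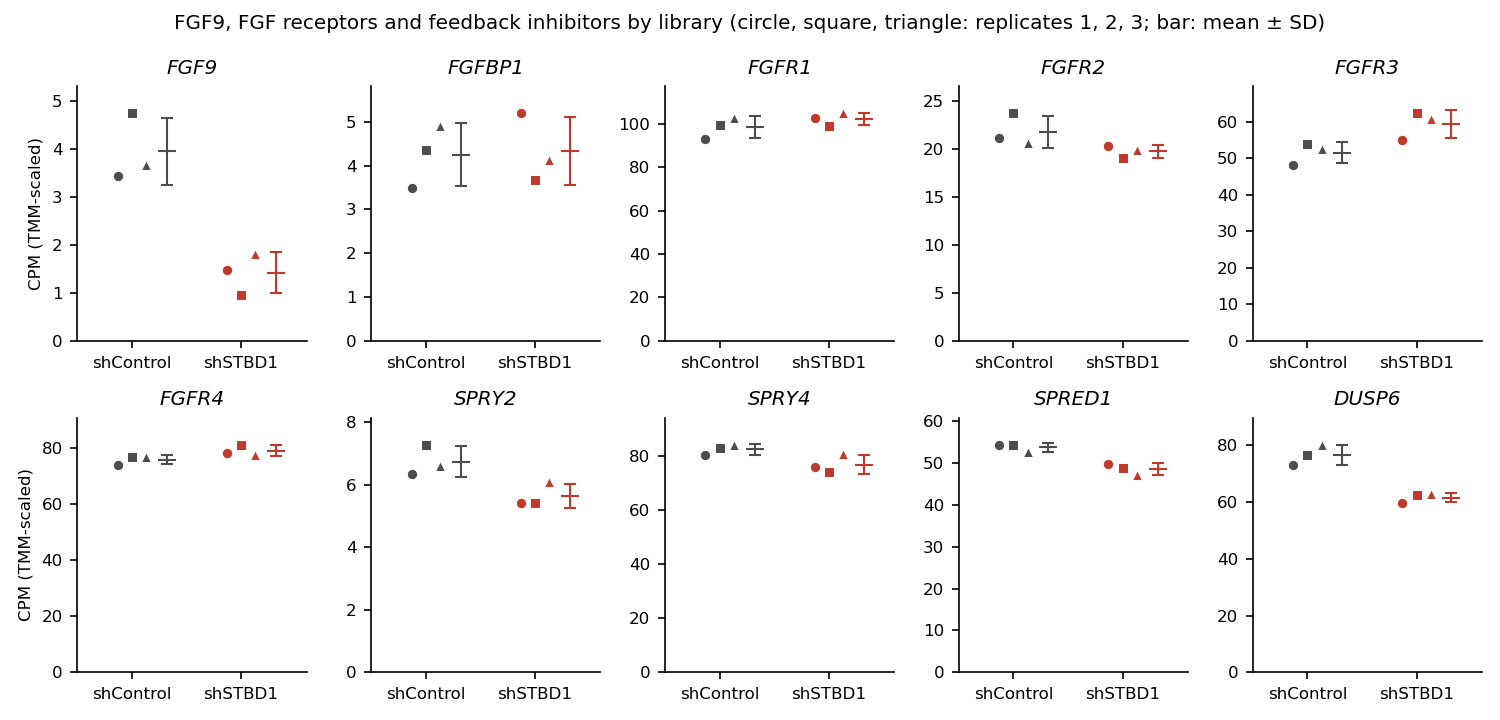
Level in each library, as TMM-scaled CPM on linear axes that start at 0, for FGF9, FGFBP1, the 4 FGF receptors and the 4 feedback inhibitors. Points are libraries (circle, square and triangle for replicates 1, 2 and 3), bars are the mean ± SD of 3 libraries, and FGF9 shows the largest gap relative to its level (3.43 to 4.74 CPM in shControl and 0.966 to 1.82 CPM in shSTBD1).

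FGF9 was 1 of 18 secreted FGF ligands compared per length. FGF19, an endocrine FGF that acts through FGFR4 with the co-receptor KLB, was the most abundant, at 12.5 ± 1.99 TPM (SD, n = 3) in shControl and 10.1 ± 1.49 TPM in shSTBD1. FGF2, the matrix-bound basic FGF, followed at 4.30 ± 0.35 TPM and 4.31 ± 0.60 TPM. FGF9 ranked number 3 in shControl, at 1.62 ± 0.072 TPM, and number 7 in shSTBD1, at 0.587 ± 0.087 TPM. Its control libraries lay above those of FGF8, FGF17, FGF22 and FGF18, which had means of 0.737 to 1.09 TPM in shControl. In shSTBD1 these 4 ligands had means of 0.743 to 1.55 TPM, and FGF9 overlapped FGF18 there. FGF1 was at 0.123 TPM in shControl and 0.207 TPM in shSTBD1, and FGF4, FGF5, FGF6 and FGF10 were at 0 in every library.

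**Figure D2:**
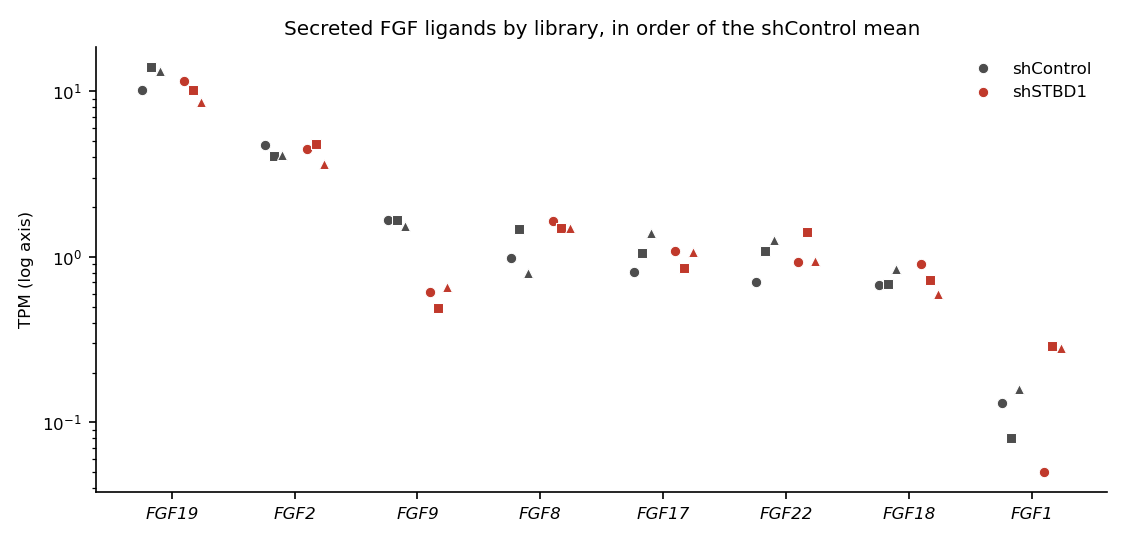
TPM of the 8 most abundant secreted FGF ligands in each library, on a log axis, in the order of their shControl means. FGF9 is the ligand whose shControl and shSTBD1 libraries are most clearly apart (1.54 to 1.67 TPM against 0.49 to 0.66 TPM), while FGF19 and FGF2 remain the most abundant in both groups.

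Of the other 17 ligands, 6 held enough reads to be tested and 0 passed the edgeR test or DESeq2, with 1 of the 6 at an unadjusted p under 0.05 in edgeR. FGF19 was measured at 19.9, 26.0 and 24.9 CPM in shControl and at 22.04, 19.6 and 16.6 CPM in shSTBD1. The groups overlapped through shControl replicate 1 (log2 fold change -0.28, standard error 0.10, edgeR adjusted p = 0.068). Without that library the log2 fold change of FGF19 was -0.40 (edgeR adjusted p = 0.0022), and without shSTBD1 replicate 1 it was -0.38 (edgeR adjusted p = 0.043). With no filter on low counts it was -0.28 and passed as well (edgeR adjusted p = 0.0022). FGF2 had a log2 fold change of 0.041 (standard error 0.092, edgeR adjusted p = 0.82). The FGF homologous factors stay inside the cell and act on sodium channels. Of 4 listed, FGF11 was tested, FGF13 being at 0 in all libraries but shSTBD1 replicate 2, and FGF11 had a log2 fold change of 0.11 (standard error 0.11, edgeR adjusted p = 0.53), so that 0 of 1 passed, with 0 at an unadjusted p under 0.05 and 0 called by DESeq2.

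FGFBP1 (ENSG00000137440, chromosome 4, from 15935577 to 15938740, minus strand) carries FGFs away from heparan sulfate stores. It was measured at 3.48, 4.36 and 4.91 CPM in shControl and at 5.20, 3.68 and 4.14 CPM in shSTBD1. The groups overlapped throughout, and its log2 fold change was 0.023 (standard error 0.17). With similar depth to FGF9, at 245 and 257 expected counts per group, a difference of the size seen for FGF9 was not present in FGFBP1. The sign of its small difference turned without shControl replicate 1 (-0.10) or without shSTBD1 replicate 1 (-0.12).

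The receptors are tyrosine kinases with a ligand-binding part of immunoglobulin-like domains. FGFR1 and FGFR4 were the most abundant, and their levels were close in the groups. FGFR1 (ENSG00000077782, chromosome 8, from 38400215 to 38468834, minus strand), the receptor most often described in mesenchymal cells, was measured at 92.8, 99.3 and 102.8 CPM in shControl and at 102.5, 99.2 and 104.8 CPM in shSTBD1. The groups overlapped, and FGFR1 differed by 0.055 on the log2 scale (standard error 0.041). FGFR4 (ENSG00000160867, chromosome 5, from 177086905 to 177098144, plus strand), the receptor of FGF19, was measured at 74.1, 76.8 and 76.8 CPM in shControl and at 78.5, 81.3 and 77.5 CPM in shSTBD1. The libraries of FGFR4 did not overlap, yet the difference was small, at 0.060 on the log2 scale (standard error 0.038), and it did not pass the threshold. FGFR1 shares bases with LETM2 on the opposite strand, at 98.1 to 145.7 expected counts against at least 1787 for FGFR1, and the sources do not state whether reads were counted by strand.

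FGFR3 (ENSG00000068078, chromosome 4, from 1793293 to 1808872, plus strand) was the receptor with the highest fold change in read counts. It was measured at 48.3, 53.8 and 52.6 CPM in shControl and at 55.1, 62.3 and 60.8 CPM in shSTBD1, without overlap. The means were 51.5 ± 2.91 CPM and 59.4 ± 3.80 CPM (SD, n = 3 each), a log2 fold change of 0.21 (standard error 0.054). Its effective length, which RSEM averages over a gene's transcripts by their abundance, was 2788, 2717 and 2658 bases in shControl and 2806, 3005 and 2842 bases in shSTBD1. Counts and length were thus both higher in every shSTBD1 library. Per length the receptor was at 21.7 ± 2.10 TPM in shControl and 23.1 ± 0.86 TPM in shSTBD1, and the groups overlapped. With effective-length offsets in the edgeR fit, the log2 fold change of FGFR3 was 0.10 and its call was lost.

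FGFR2 (ENSG00000066468, chromosome 10, from 121478332 to 121598458, minus strand), whose IIIb splice form is the epithelial receptor for FGF7 and FGF10, was the least abundant receptor. Its levels were 21.2, 23.8 and 20.6 CPM in shControl and 20.3, 19.1 and 19.9 CPM in shSTBD1. The groups did not overlap, and the log2 fold change of -0.15 (standard error 0.069) did not pass the threshold. Its effective length was 2306, 2551 and 2399 bases in shControl and 2772, 2753 and 2785 bases in shSTBD1. All 3 shSTBD1 libraries therefore assigned the FGFR2 reads to longer transcripts on average, with means of 2419 ± 124 bases and 2770 ± 16.1 bases (SD, n = 3 each). Per length, FGFR2 was at 10.3 ± 0.51 TPM in shControl and 8.03 ± 0.30 TPM in shSTBD1, without overlap. With effective-length offsets the log2 fold change of FGFR2 was -0.35 and passed the threshold of the edgeR test, and limma on log2(TPM + 1) gave -0.33, which did not. Effective lengths did not overlap between the groups in 9.55% of the tested genes, and FGFR2 and FGFR3 were the 2 of the 10 genes for which this was so. The values are summed over 27 annotated transcripts of FGFR2 and 11 of FGFR3, and single transcripts were not analysed here.

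**Figure D3:**
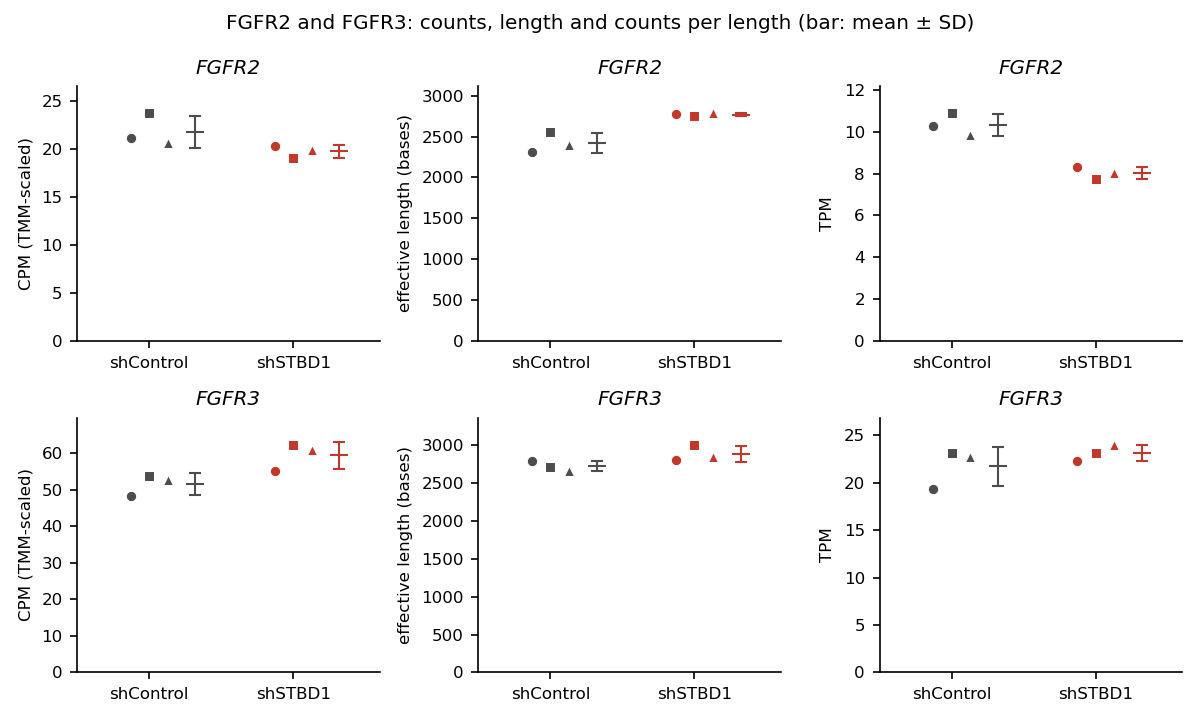
TMM-scaled CPM, RSEM effective length in bases and TPM of FGFR2 (upper row) and FGFR3 (lower row) in each library, on linear axes that start at 0, with bars for the mean ± SD of 3 libraries. The effective length of FGFR2 is 2306 to 2551 bases in shControl and 2753 to 2785 bases in shSTBD1, and the gap between the groups is wider for FGFR2 in TPM than in CPM, while for FGFR3 it closes.

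Summed over the 4 receptors, the level was 125.7 ± 9.63 TPM in shControl and 127.8 ± 0.48 TPM in shSTBD1 (SD, n = 3 each), and the groups overlapped. The share of FGFR2 in that sum was 8.84%, 8.05% and 7.83% in the shControl libraries and 6.49%, 6.07% and 6.29% in the shSTBD1 libraries. FGFR2 thus made up a smaller part of the receptor pool in every shSTBD1 library. FGFR1 made up 41.1 ± 2.08% in shControl and 42.0 ± 1.84% in shSTBD1. FGFR4 made up 33.4 ± 2.31% and 33.6 ± 1.46%, and FGFR3 made up 17.3 ± 0.69% and 18.1 ± 0.71%. The order from FGFR1 through FGFR4 and FGFR3 to FGFR2 was the same in both groups, and FGFR1 and FGFR4 overlapped in shControl but not in shSTBD1.

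DUSP6 had the largest difference among the feedback inhibitors. It encodes MKP-3, a cytoplasmic phosphatase that removes the activating phosphates from ERK and that ERK signalling itself induces. DUSP6 (ENSG00000139318, chromosome 12, from 89347235 to 89352501, minus strand) was measured at 73.1, 76.4 and 80.1 CPM in shControl. In shSTBD1 it was measured at 59.6, 62.3 and 62.6 CPM. The gap between the lowest control and the highest shSTBD1 library was wider than the range within either group. The means were 76.5 ± 3.50 CPM and 61.5 ± 1.66 CPM (SD, n = 3 each), and DUSP6 fell by 19.5% (log2 fold change -0.31, standard error 0.043). Per length it was at 39.8, 39.9 and 43.3 TPM in shControl and at 32.4, 36.3 and 34.1 TPM in shSTBD1, without overlap. With effective-length offsets the log2 fold change was -0.25 and no longer passed the threshold. An antisense non-coding gene that overlaps DUSP6 (ENSG00000274021) held 22.2 to 39.2 expected counts per library, against at least 1090 for DUSP6.

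SPRED1 binds the RAS GTPase-activating protein neurofibromin and brings it to the membrane. SPRED1 (ENSG00000166068, chromosome 15, from 38252836 to 38357249, plus strand) was measured at 54.3, 54.2 and 52.5 CPM in shControl and at 49.8, 48.8 and 47.0 CPM in shSTBD1. The groups did not overlap, and the log2 fold change was -0.15 (standard error 0.044). This call was close to the threshold, and it was lost in 12 of 17 other settings, among them leaving out any 1 of the 6 libraries, with log2 fold changes of -0.17 to -0.12.

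The Sprouty proteins intercept signalling between the receptor and RAS or RAF. SPRY4 (ENSG00000187678, chromosome 5, from 142310427 to 142326455, minus strand) was measured at 80.5, 83.0 and 84.3 CPM in shControl and at 76.0, 74.0 and 80.8 CPM in shSTBD1. The groups overlapped through shSTBD1 replicate 3, and the log2 fold change of -0.10 (standard error 0.041) did not pass. Without shControl replicate 1 it was -0.12 and passed. In TPM, SPRY4 ran from 26.2 to 30.2 in shControl and from 24.9 to 25.3 in shSTBD1, without overlap. SPRY2 (ENSG00000136158, chromosome 13, from 80335976 to 80341126, minus strand), a much less abundant transcript here, was measured at 6.34, 7.28 and 6.61 CPM in shControl and at 5.41, 5.43 and 6.10 CPM in shSTBD1. The libraries of SPRY2 did not overlap, and the difference of -0.26 on the log2 scale (standard error 0.12) did not pass the threshold. All 4 inhibitors had lower group means in shSTBD1. Of them, DUSP6 and SPRED1 were past the threshold, while 7.54% of all tested genes were lower. The inhibitors were chosen on this comparison, so nothing is read from this count.

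Among all 10 genes, 4 passed the threshold in the edgeR test, against 15.8% of the tested genes. FGFR3 was higher (8.22% of the tested genes were), and FGF9, SPRED1 and DUSP6 were lower (7.54% were). CPM values did not overlap in 7 of the 10 genes, against 33.6% of the tested genes. Their median log2 fold change was -0.12, against 0.0023 over all tested genes. Since the genes were selected on this comparison, nothing is read from these counts. In TPM the 10 genes kept 1 order in both groups, from FGFR1 at 51.8 ± 5.45 TPM and FGFR4 at 41.9 ± 3.69 TPM in shControl, through DUSP6, SPRY4, FGFR3, FGFR2, SPRED1, FGFBP1 and SPRY2, down to FGF9. In shControl, FGFR1, FGFR4 and DUSP6 overlapped as neighbours, as did FGFBP1 and SPRY2. In shSTBD1 the overlapping neighbours were FGFR2, at 8.03 ± 0.30 TPM, and SPRED1, at 7.92 ± 0.28 TPM.

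**Figure D4:**
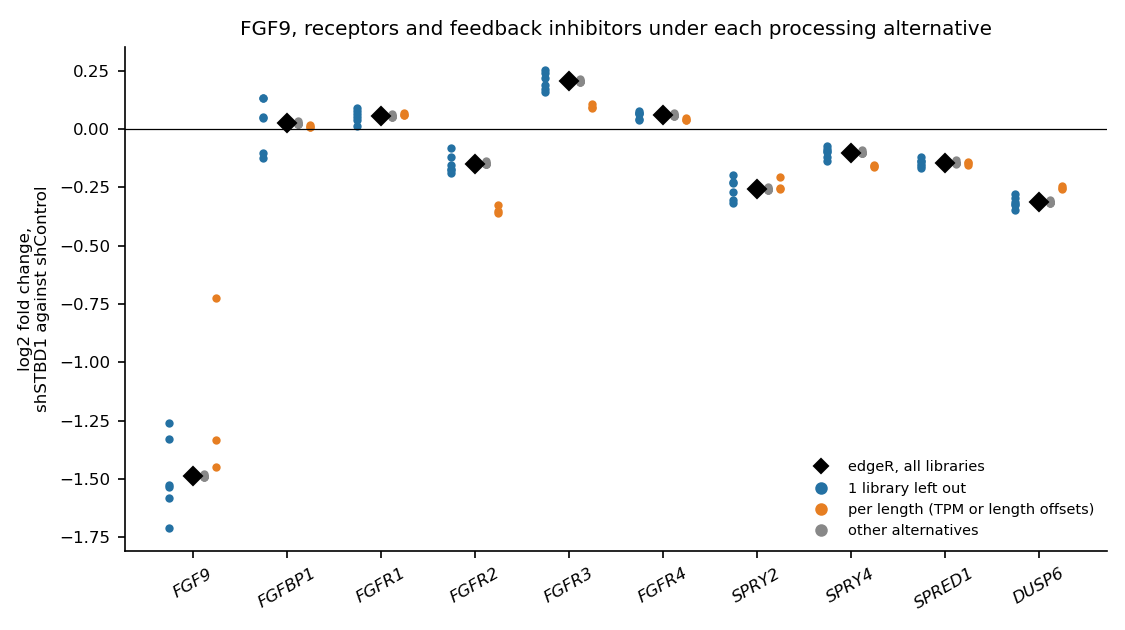
Log2 fold change of each of the 10 genes (linear axis, shSTBD1 against shControl) in the edgeR fit of all libraries and under the alternatives, which are grouped as 1 library left out, per-length values and others. FGF9 lies between -1.71 and -0.73 in every setting, FGFR2 is lower and FGFR3 nearer to 0 per length, and FGFBP1 lies on both sides of 0.

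ERK signalling reaches DUSP6 and its relatives in part through ETS transcription factors, whose binding sites hold the core GGAA. The 250 bases upstream of the start site are shown for the 3 genes among the receptors and inhibitors that passed the threshold, DUSP6 and SPRED1 as lower and FGFR3 as higher, so that the core can be read beside their values. They are RefSeq sequences on GRCh38.p14, written 5′ to 3′ on the gene's strand, with every GGAA, and TTCC for the core on the other strand, in capitals.
DUSP6 (chr12:89352502-89352751, minus strand): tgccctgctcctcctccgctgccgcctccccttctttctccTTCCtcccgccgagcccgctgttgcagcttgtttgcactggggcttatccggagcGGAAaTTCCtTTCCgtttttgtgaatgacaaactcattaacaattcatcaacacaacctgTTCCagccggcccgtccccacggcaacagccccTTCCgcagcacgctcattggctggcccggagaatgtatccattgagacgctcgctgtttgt
SPRED1 (chr15:38252586-38252835, plus strand): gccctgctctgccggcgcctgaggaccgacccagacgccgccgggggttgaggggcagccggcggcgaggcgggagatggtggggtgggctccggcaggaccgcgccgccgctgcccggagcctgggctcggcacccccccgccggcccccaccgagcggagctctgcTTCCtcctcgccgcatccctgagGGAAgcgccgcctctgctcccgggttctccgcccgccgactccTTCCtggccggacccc
FGFR3 (chr4:1793043-1793292, plus strand): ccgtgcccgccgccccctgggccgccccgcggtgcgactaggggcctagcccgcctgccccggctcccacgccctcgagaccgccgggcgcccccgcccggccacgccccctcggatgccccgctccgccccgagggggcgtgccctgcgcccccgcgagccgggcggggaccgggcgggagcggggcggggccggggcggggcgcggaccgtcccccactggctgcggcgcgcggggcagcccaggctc
The DUSP6 window held 6 such cores, the SPRED1 window 3 and the FGFR3 window 0. None of the other genes with a window listed passed the threshold, and whether the number of cores bears on the changes was not tested. The FGFBP1 window held 6, the windows of FGFR4 held 1 and 6, those of FGFR2 held 1 to 4, those of SPRY2 held 3 to 4 and that of SPRY4 held 2. A GGAA on either strand was in 92.7% of 35116 RefSeq windows of the same length, with a median of 3. The longer site CCGGAA, which contains the core, was in 14.5% of all windows, in none of these 3 and in 1 window of SPRY2. The AP-1 site TGACTCA was in 4.203% of all windows and in none of the 15 windows listed for 8 of the 10 genes. A match is a description of the letters and not a measured site. Windows were listed for 8 of the 10 genes. FGF9 and FGFR1 were not among them, so their upstream bases are not described here.

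The other genes of FGF signalling were taken as 7 lists of 104 genes by textbook role, none of them among the 10. The lists were drawn up with earlier results of these data known. Their counts are therefore descriptions, and nothing is read from them beside the shares of all tested genes. Of these, 78 were tested, 10 were higher and 17 were lower by the edgeR test at an adjusted p of 0.05, against 15.8% called among all tested genes. Their median log2 fold change was -0.055, and CPM values did not overlap in 39 of the 78, against 33.6% of all tested genes. Per length, 8 of the 27 calls were also made under effective-length offsets, namely SDC4, GPC1, HSPG2, DUSP4, ETV1, IER3, CCND1 and MCL1. By limma on log2(TPM + 1), 4 of the 27 were also called, namely SDC4, DUSP4, IER3 and CCND1. Among the genes named below, the call was lost in 13 of 17 other settings for FGFRL1, in 11 each for HS2ST1, SPRY1 and ETV5, in 9 for FOS, in 8 for GPC4, in 7 for HS6ST1, in 6 for MYC and in 5 for EXTL3. SDC4, DUSP4, IER3 and CCND1 kept theirs in all 17, and the remaining genes lost it in 2 or 3, apart from HS6ST3, whose settings are given with its values.

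Heparan sulfate proteoglycans and other co-receptors were mostly lower where they passed. Of 21 listed, 14 were tested, 6 were lower and 1 was higher (7.54% and 8.22% of all tested genes), with a median log2 fold change of -0.14. SDC4, the syndecan of focal adhesions, fell from 157.3 ± 4.15 CPM to 129.7 ± 3.01 CPM (log2 fold change -0.28, standard error 0.034, edgeR adjusted p = 3.1e-05). The glypicans GPC4 and GPC1, which are anchored in the membrane by a lipid, had log2 fold changes of -0.24 and -0.21 (edgeR adjusted p = 0.014 and 6.0e-04). The secreted proteoglycans HSPG2, or perlecan, and AGRN, or agrin, were at -0.23 and -0.19 (edgeR adjusted p = 0.0051 and 3.6e-04). FGFRL1, the receptor-like protein without a kinase, was named after its values were seen, and was at -0.12 (edgeR adjusted p = 0.040), a call that was lost without any 1 of the 6 libraries. SDC1, the main syndecan of epithelia, was the gene that rose, from 78.8 ± 2.26 CPM to 88.5 ± 1.04 CPM (log2 fold change 0.17, edgeR adjusted p = 0.0056). With effective-length offsets 3 of the list were lower and 0 higher, the calls of SDC1, GPC4, FGFRL1 and AGRN were lost, and AGRN was at -0.089.

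The enzymes that build and trim heparan sulfate showed 5 lower and 1 higher of 15 tested (20 listed), against 7.54% and 8.22% of all tested genes, with a median log2 fold change of -0.068. NDST1, which starts the sulfation of the chain, fell from 106.0 ± 5.61 CPM to 90.7 ± 2.51 CPM (log2 fold change -0.23, standard error 0.042, edgeR adjusted p = 0.0016). The 6-O-sulfotransferase HS6ST2 fell by 0.24 on the log2 scale and the 2-O-sulfotransferase HS2ST1 by 0.14 (edgeR adjusted p = 0.0039 and 0.045). HS6ST1, named after its values were seen, was at -0.14 (edgeR adjusted p = 0.021). HS6ST3 had the most negative value, -1.25 (standard error 0.40, edgeR adjusted p = 0.042), from 44 expected counts in shControl and 19 in shSTBD1, and it kept its call in 3 of 15 other settings that gave it an adjusted p. EXTL3, which starts heparan sulfate rather than chondroitin chains, rose by 0.15 on the log2 scale (edgeR adjusted p = 0.011). EXT2, a subunit of the chain polymerase, was at -0.12 (edgeR adjusted p = 0.086). With effective-length offsets, and in both limma fits, all 6 of these calls were lost. HS6ST2 was then at -0.073 and EXTL3 at 0.052 with the offsets.

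**Figure D5:**
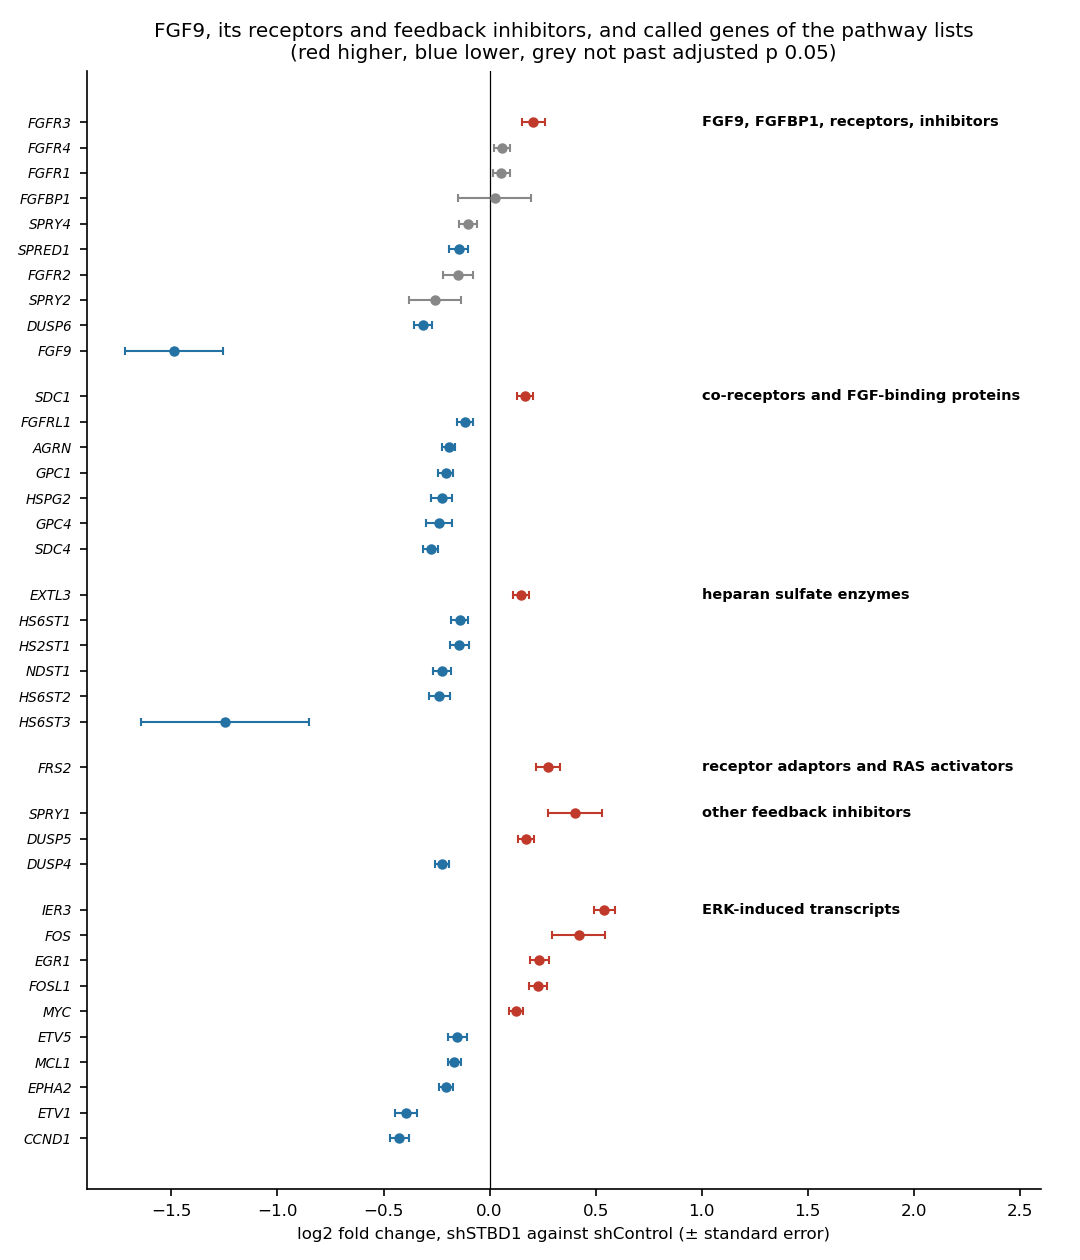
Log2 fold change with its standard error (3 libraries per group, edgeR) for the 10 genes described and for the 27 called genes of the pathway lists, in red where higher, blue where lower and grey where the threshold was not passed. FGF9 (-1.49) and HS6ST3 (-1.25) lie furthest to the left, and the ERK-induced transcripts lie on both sides of 0.

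Between receptor and RAS, 1 of 16 adaptors and activators, or 6.25%, passed the test, against 15.8% of all tested genes, and the median log2 fold change was -0.046. FRS2, the docking protein that FGF receptors phosphorylate, was measured at 25.5, 25.5 and 24.7 CPM in shControl and at 31.1, 28.8 and 31.9 CPM in shSTBD1. All shSTBD1 libraries were above all control libraries (log2 fold change 0.28, standard error 0.059, edgeR adjusted p = 0.0042). GRB2, the adaptor that binds SOS, was at -0.098 (edgeR adjusted p = 0.076), and PTPN11, the phosphatase SHP2, was at 0.015 (edgeR adjusted p = 0.84). The call of FRS2 was lost per length.

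The other feedback inhibitors moved in both directions. Of 12 tested, 2 were higher and 1 was lower (8.22% and 7.54% of all tested genes), with a median log2 fold change of -0.019. SPRY1, a relative of SPRY2 and SPRY4, was measured at 4.73, 4.74 and 4.46 CPM in shControl and at 6.23, 6.53 and 5.65 CPM in shSTBD1 (log2 fold change 0.40, standard error 0.13, edgeR adjusted p = 0.041). DUSP5, a nuclear ERK phosphatase, rose from 99.2 ± 3.14 CPM to 111.9 ± 3.72 CPM (log2 fold change 0.17, edgeR adjusted p = 0.0054). DUSP4, another nuclear phosphatase of ERK and its relatives, fell from 169.7 ± 5.34 CPM to 145.3 ± 0.88 CPM (log2 fold change -0.22, edgeR adjusted p = 2.1e-04). LZTR1, an adaptor for the degradation of RAS proteins and an abundant transcript of this list, was at 0.056 (edgeR adjusted p = 0.41).

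Transcripts that ERK signalling is known to induce were split in direction, with 5 higher and 5 lower of 14 tested (8.22% and 7.54% of all tested genes) and a median log2 fold change of -0.035. With effective-length offsets 1 was higher and 3 were lower, and by limma on log2(TPM + 1) 1 was higher and 1 lower. IER3, FOS, EGR1, FOSL1 and MYC were higher, and CCND1, ETV1, EPHA2, MCL1 and ETV5 were lower. IER3, an early-response gene, was measured at 290.4, 345.5 and 344.8 CPM in shControl and at 474.3, 472.0 and 479.6 CPM in shSTBD1 (log2 fold change 0.54, standard error 0.050, edgeR adjusted p = 1.6e-06). FOS, EGR1 and FOSL1, transcription factors of the early response, had log2 fold changes of 0.42, 0.23 and 0.23 (edgeR adjusted p = 0.030, 0.0021 and 0.0019). MYC was at 0.12 (edgeR adjusted p = 0.022). CCND1, or cyclin D1, fell from 590.2 ± 48.9 CPM to 439.7 ± 8.71 CPM (log2 fold change -0.42, standard error 0.045, edgeR adjusted p = 7.0e-06). ETV1, an ETS factor of the group that FGF signalling induces, was measured at 54.1, 49.5 and 56.1 CPM in shControl and at 40.7, 40.0 and 40.5 CPM in shSTBD1 (log2 fold change -0.39, edgeR adjusted p = 6.3e-05). ETV5, of the same group and named after its values were seen, was at -0.15 (edgeR adjusted p = 0.037), a call that was lost in both DESeq2 fits and per length. EPHA2, an ephrin receptor, and MCL1, a survival factor of the BCL2 family, were at -0.20 and -0.17 (edgeR adjusted p = 4.1e-04 and 0.0012). DUSP6 and ETV1 were thus lower in the same libraries in which IER3 and EGR1 were higher.

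The genes most like FGF9 were sought by the root mean square difference of log2 CPM, centred on the control mean, over the 6 libraries. Among 14062 genes compared, VIM (0.22), IQGAP2 (0.23), NRP1 (0.24) and MAP3K15 (0.33) had the smallest difference. The median over all of them was 1.06. With values centred on the control mean, that median largely reflects the change of FGF9 itself and is no background for likeness. VIM, the intermediate filament protein vimentin, was measured at 3.64, 3.88 and 4.01 CPM in shControl and at 1.91, 1.10 and 1.72 CPM in shSTBD1. NRP1, or neuropilin-1, a co-receptor of VEGF and semaphorins, was measured at 9.04, 8.53 and 8.87 CPM in shControl and at 3.23, 2.90 and 3.48 CPM in shSTBD1. IQGAP2, a scaffold protein, and MAP3K15, a kinase, had log2 fold changes of -1.25 and -1.10. Per length, IQGAP2 was at 0.64, 1.94 and 1.56 TPM in shControl and at 0.6, 0.3 and 2.14 TPM in shSTBD1. Its groups thus overlapped in TPM, while those of VIM, NRP1 and MAP3K15 did not. Likeness to FGF9 selects genes with a similar fold change, so these values are given without a test.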

How the data were processed

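RNA of HCT116 cells was sequenced from 3 shControl and 3 shSTBD1 cultures, grouped by their labels. The authors used STAR 2.7.1a for alignment to hg38, with gene models of Ensembl release 93, and deposited RSEM 1.3.1 output, namely the expected count of each gene (not normalized, not whole for 19.9% to 20.4% of values above 0), TPM, effective length and the posterior SD of the count. Strand use in counting was not given in the sources used here. Of 58395 genes, 57754 matched a symbol. Totals were 17689097 to 21668274 expected counts per library, and low genes such as FGF9 are limited by them.

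Expected counts were rounded, filtered by filterByExpr (15566 genes), scaled by TMM (factors 0.979 to 1.009) and compared by edgeR 4.0.16 (R 4.3.3) with the quasi-likelihood F-test and no further term. P-values were adjusted by Benjamini-Hochberg over all tested genes, with a threshold of 0.05. Standard errors are the log2 fold change over the root of F. The 10 genes, the lists and the markers were chosen with earlier results of these data known. Named besides the 10 genes and STBD1 were, per list, up to 4 called genes with the largest increase and 4 with the largest decrease whose groups do not overlap, the 2 of highest mean TPM, and 4 genes most like FGF9 (at least 1 CPM, log2 CPM with a prior count of 2). Positions are from GENCODE 44 on GRCh38.

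Alternatives were DESeq2 1.42.0, library size, upper-quartile factors, no filter, at least 10 counts in every library, unrounded counts, effective-length offsets, limma 3.58.1 on log2 of TPM with 1 or 0.1 added, the replicate number as a block, and leaving out each library. DESeq2 without independent filtering was added after the data were seen, because DESeq2 had given FGF9 no adjusted p. On simulated counts of 15566 genes, with 200 changed, edgeR recovered 69% at a log2 fold change of 0.5 and 84% at 1, and 4.97% of 161 calls were unchanged genes. Most calls described here had log2 fold changes smaller in size than 0.5, and 2453 genes were called in the data. The simulated rates therefore do not carry over to them.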

Additional observations from a re-analysis of the deposited data

How the results depend on the processing

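FGF9 was selected on this comparison, so its stability over fits of the same libraries is no independent support. It stayed below 0 and past the threshold in all 16 settings that gave it an adjusted p. Its log2 fold change ran from -1.71 to -1.26 with 1 library left out and was -1.49 with DESeq2 without independent filtering. The number of called genes, 2453, was 511 under effective-length offsets, 292 and 290 by limma on TPM with 1 and 0.1 added, 1579 with DESeq2 without independent filtering, and 1409 to 2577 with 1 library left out. Of the 10 genes, 4 were called in the edgeR fit, 2 with DESeq2, which gave FGF9 no adjusted p, 2 with effective-length offsets (FGF9 and FGFR2), 1 in each limma fit (FGF9) and 2 to 4 with 1 library left out. The 2 called without shSTBD1 replicate 2, and the 2 called without shSTBD1 replicate 3, were FGF9 and DUSP6. Without shControl replicate 1, which stood apart, 4 were called, with SPRY4 in place of SPRED1. The number of pathway genes called, 27, was 8 under effective-length offsets, 4 in each limma fit and 19 to 24 with 1 library left out, where 18 to 22 of the 27 were among them. STBD1 missed the threshold in both limma fits (log2 fold change -0.54 and -0.65, adjusted p = 0.065 and 0.067).

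Signs turned only for values near 0. FGFBP1 ran from -0.12 to 0.13 with 1 library left out, FGF2 from -0.031 to 0.15 and PTPN11 from -0.012 to 0.062. In the limma fits FGF2 was at -0.0034 and -0.0052 and PTPN11 at -4.9e-05 and -2.2e-05. LZTR1 was at -7.3e-04 with effective-length offsets and at -0.012 and -0.013 in the limma fits. The cause of these changes was not tested.

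With the replicate block, 2579 genes were called, 2374 of them also without it, and FGF9 was at -1.49 with the same 4 of the 10 genes called. Libraries that share a number deviated from their group means with correlations of 0.071, 0.068 and -0.0084. For libraries with different numbers the correlations ran from -0.074 to 0.010. Whether a shared number marks a pairing was not tested, and the labels give only the number. With 3 libraries per group and 21 to 99 expected counts of FGF9 per library, small differences in the low genes (FGF9, FGFBP1, SPRY2) were not detectable at this depth.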
